A study of Mus musculus with 55 samples.

Results

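The insulator protein CTCF was mapped by ChIP-seq in mouse liver, and 2446 of the 5838 CTCF sites of wild type (WT) liver were lost in the liver labelled Setd8-LKO. The set was chosen from measured values. A lost site is a peak of the WT CTCF list that shares not a single base with any of the 20905 peaks of the Setd8-LKO CTCF list, and the other 3392 WT sites are called kept. The lost sites make up 41.9% of the WT list (95% Clopper-Pearson interval 40.6 to 43.2).

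The WT group consisted of untreated livers. The Setd8-LKO group consisted of livers with both Setd8 alleles floxed and Cre driven by the albumin promoter, which deletes Setd8 in hepatocytes, taken 24 h after intraperitoneal injection of TCPOBOP at 3 mg/kg. All mice were 45 to 50 days old. The labels give whole liver for every sample, with tissue used for RNA-seq and ChIP-seq and nuclei, which the study's methods call hepatocyte nuclei and prepared from homogenised liver, for ATAC-seq and CUT&Tag (Lamin A/C and H4K20me3). TCPOBOP is an agonist of the nuclear receptor CAR that drives hepatocytes into the cell cycle, and Setd8 (Kmt5a) is the methyltransferase that places the single methyl group on lysine 20 of histone H4. Genotype and treatment changed together in every chromatin comparison, so their parts cannot be told apart. CTCF was profiled in 4 WT and 2 Setd8-LKO livers, Smc3 in 3 and 2, H3K27ac in 3 and 3, open chromatin by ATAC-seq in 3 and 5, Lamin A/C in 4 and 4 libraries and H4K20me3 in 2 and 2. The 4 WT Lamin A/C libraries carry only the labels WT1 and WT2, so they may come from 2 livers. Each assay was represented by 1 list of regions per condition, so no spread between livers could be measured, and the intervals given here cover counting error only. The lists give no depth for the libraries behind them.

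CTCF binds a long, GC-rich sequence through its zinc fingers. Cohesin, a ring that contains Smc3, extrudes chromatin loops and halts at CTCF bound in the right orientation, so the proteins are usually found together at loop anchors. H3K27ac marks active promoters and enhancers, ATAC-seq marks accessible DNA, and Lamin A/C and H4K20me3 mark chromatin at the nuclear periphery and heterochromatin.

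The lost sites carried CTCF recognition sequences. A 14-base matrix learned from kept sites only had the consensus CCANNAGGGGGCGC and grew from the 8-base word AGGGGGCG, which was found on either strand in 704 of 3391 kept windows and in 18 windows moved by 2000 bp. The 5 lost sites with the highest WT enrichment are shown to display how complete their matches are, with the matched 14 bases in capitals and 15 bases on each side (build mm10).
Site near Slc46a1, chr11:78453834-78453877, plus strand: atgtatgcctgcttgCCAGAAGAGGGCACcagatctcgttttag
Site near Gtf3c5, chr2:28585353-28585396, minus strand: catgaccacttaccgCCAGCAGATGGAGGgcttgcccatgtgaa
Site near Ccn2, chr10:24622751-24622794, minus strand: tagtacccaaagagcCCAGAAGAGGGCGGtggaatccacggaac
Site in an intron of Iffo2, chr4:139611871-139611914, plus strand: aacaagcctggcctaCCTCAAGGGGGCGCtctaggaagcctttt
Site in an intron of Opalin, chr19:41071740-41071783, plus strand: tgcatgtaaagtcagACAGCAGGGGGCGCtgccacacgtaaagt
The 2 strongest kept sites with a match are printed in the same way for comparison.
Kept site near the start of Sh3glb1, chr3:144720571-144720614, minus strand: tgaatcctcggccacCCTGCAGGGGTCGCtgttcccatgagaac
Kept site at the start of Gm13996, chr2:103547334-103547377, minus strand: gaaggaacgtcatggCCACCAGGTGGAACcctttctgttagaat

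Lost and kept sites held the motif at nearly the same rate. The best score within 100 bp of the summit passed the value exceeded by 1% of moved windows in 1608 of 2446 lost sites, or 65.7% (63.8 to 67.6), and in 2289 of 3391 kept sites, or 67.5% (65.9 to 69.1). The difference, lost minus kept, was -1.74 percentage points with a 95% Newcombe interval of -4.20 to 0.70. In the windows moved by 2000 bp the share was 0.977%. At the strictest score, passed by 0.1% of moved windows, the shares were 16.4% of lost and 24.1% of kept sites, so the highest scores were less common among lost sites. Summits lay within 25 bp of the motif centre at 68.3% of lost and 65.1% of kept sites with a motif. Because the matrix was learned from kept sites only, it may favour them. Within 50 bp of the summit the order of the shares turned, with 70.9% of lost and 69.1% of kept sites. By contrast, 2421 of 17504 peaks found in the Setd8-LKO CTCF list alone held the motif, or 13.8% (13.3 to 14.4). Lost sites without Smc3 in either list held it less often than lost sites with Smc3 in the WT list, at 61.6% (58.3 to 64.8) against 68.1% (65.7 to 70.4).

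**Figure D1:**
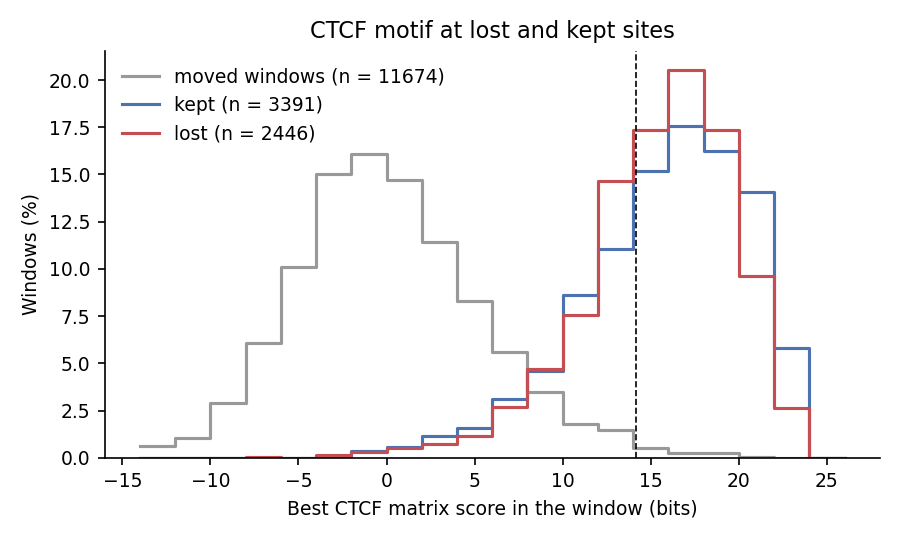
Distribution of the best CTCF matrix score (x axis, log2 odds in bits) within 100 bp of the summit of lost (red) and kept (blue) WT CTCF sites and in windows moved by 2000 bp (grey), as a percentage of windows (y axis). The dashed line is the score passed by 1% of moved windows, which 65.7% of lost and 67.5% of kept sites exceeded.

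The share of sites lost was not ordered by the strength of the WT peak. The fold enrichment reported by the peak caller over local background had a median of 12.4 at lost sites (quartiles 10.7 and 14.3, range 5.14 to 26.4) and of 12.7 at kept sites (quartiles 10.4 and 15.2, range 4.88 to 31.3). Among the 4 quartiles of WT enrichment, from weakest to strongest, 39.3, 48.1, 46.4 and 33.8% of sites were lost. Lost peaks were shorter, with a median length of 202 bp against 227 bp. The strongest lost peak, chr11:78453698-78454049, had a WT enrichment of 26.4 and lay 17409 bp from the nearest Setd8-LKO CTCF peak. The strongest lost peak within a gene, chr4:139611699-139612013 in an intron of Iffo2 and the overlapping model Gm21969, had a WT enrichment of 24.2. Those 2 peaks differed at Smc3, which was absent from the Setd8-LKO list at the first and present in both lists at the second, with enrichments of 32.3 in WT and 11.9 in Setd8-LKO.

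By the distance that the rule used, 62 of the lost sites, or 2.53%, had a Setd8-LKO CTCF peak within 500 bp, and the median distance to the nearest one was 20057 bp. This distance does not show how near a lost site came to the peak caller's threshold. The 3 nearest were chr8:117600914-117601094 in an intron of Plcg2, chr19:10219156-10219413 in an intron of Myrf and chr12:24975543-24975733 at a start of Kidins220, at 15, 52 and 60 bp. The 3 kept sites with the smallest overlap, in Gm14206, in Ccm2l and at Ndufv2, shared 14, 19 and 35 bp with a Setd8-LKO peak. A rule that asked for 50% overlap of both peaks gave 3904 lost sites. The 1458 sites it added had a median CTCF enrichment of 12.1 in WT and 66.3 in Setd8-LKO and a median GC content of 63.2%, and 90.0% of them lay wholly inside a longer Setd8-LKO peak.

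Among the properties counted, GC content gave the widest range of loss. Within 100 bp of the summit the median GC content was 50.2% at lost sites (quartiles 47.8 and 52.2) and 58.2% at kept sites (quartiles 54.7 and 63.7). Of 269 WT sites under 45% GC, 250 were lost, or 92.9% (89.2 to 95.7). The share was 87.6% of 1090 sites of 45 to 50% GC, 59.8% of 1798 sites of 50 to 55% GC and 12.1% of 1359 sites of 55 to 60% GC. Above 60% GC, 2 of 610 sites were lost up to 65% GC and 0 of 711 beyond it, a count that allows a share of up to 0.422% by the limit of 3 counts and of 0.517% by the Clopper-Pearson interval. No lost site exceeded 61.2% GC, whereas kept sites reached 85.1%. GC content was examined after the data had been seen.

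**Figure D2:**
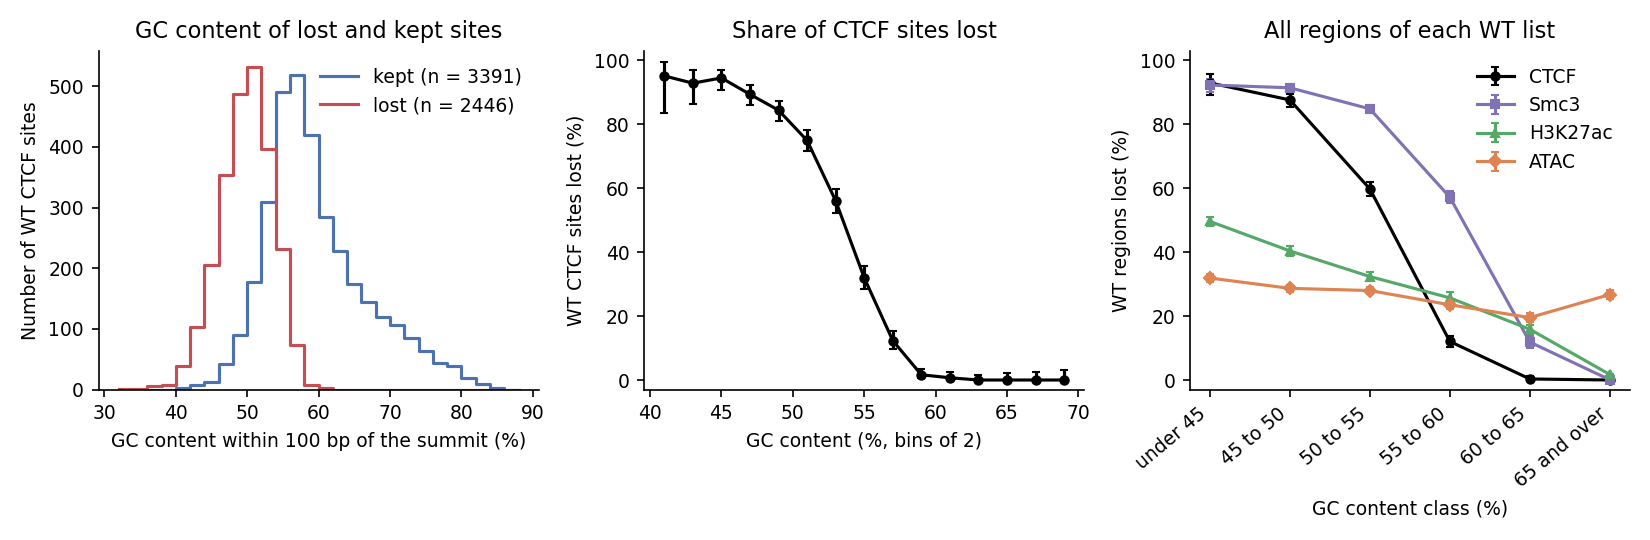
Left, number of lost (red) and kept (blue) WT CTCF sites by GC content within 100 bp of the summit. Middle, share of WT CTCF sites lost in GC bins of 2 percentage points, and right, share of all regions of each WT list without an overlap in the Setd8-LKO list in 6 GC classes, with 95% Clopper-Pearson intervals; CTCF falls from 92.9 to 0% and Smc3 from 92.3 to 0.0824%, while ATAC stays between 19.5 and 31.9%.

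A pair of sequences from far apart in this range is shown so that the difference can be read, and neither is typical of its group. The bases within 100 bp of the summit of the strongest lost site hold 37.8% GC, well under the lost median, and those around the kept site near Sh3glb1 hold 64.2%, and both are printed from the plus strand with the motif in capitals.
Lost site, chr11:78453752-78453952: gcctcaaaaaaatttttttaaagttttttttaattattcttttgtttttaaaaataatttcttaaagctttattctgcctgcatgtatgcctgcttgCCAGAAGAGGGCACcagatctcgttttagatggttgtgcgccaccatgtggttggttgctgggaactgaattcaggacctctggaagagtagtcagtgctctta
Kept site, chr3:144720466-144720666: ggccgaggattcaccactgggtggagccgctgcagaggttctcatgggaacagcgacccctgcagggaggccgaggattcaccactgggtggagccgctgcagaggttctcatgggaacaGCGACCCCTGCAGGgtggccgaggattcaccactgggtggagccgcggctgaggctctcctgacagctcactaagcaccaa
The motif itself was GC-rich in both, with a median of 71.4% GC in the matches of lost sites and 78.6% in those of kept sites. Outside the match, the median GC content of the window was 48.7% at lost and 56.7% at kept sites.

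The median CTCF enrichment at kept sites was higher in each higher GC class of the Setd8-LKO list from 45% GC upward, while in the WT list it stayed near the same value. At the 19 kept sites under 45% GC the median enrichment was 11.4 in WT and 18.8 in Setd8-LKO. At kept sites of 45 to 50% GC the median enrichment was 13.3 in WT and 16.3 in Setd8-LKO. At 50 to 55% GC these medians were 12.6 and 19.3, at 55 to 60% GC they were 12.4 and 31.4, at 60 to 65% GC 12.7 and 64.0, and at 65% GC or more 12.7 and 83.3. Over all kept sites the enrichment was higher in the Setd8-LKO list at 3152 of 3392, or 92.9%. Peaks found only in the Setd8-LKO CTCF list had a median GC content of 65.7%, against 54.2% for the whole WT list.

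The same count was made for the other assays with peak lists. Among all WT Smc3 peaks the share absent from the Setd8-LKO list fell from 92.3% under 45% GC to 84.8% at 50 to 55% GC, 11.9% at 60 to 65% GC and 0.0824% above. For H3K27ac it fell from 49.6 to 1.73% between the lowest and the highest class. For ATAC-seq, measured at region centres because that list has no summits, it was 31.9% in the lowest and 26.7% in the highest class, with no lower share than 19.5%. The GC dependence thus appeared in the 3 ChIP-seq assays, steeply in CTCF and Smc3, and was weak in ATAC-seq. The part of GC content in the loss was not tested. A difference in GC bias between the WT and Setd8-LKO ChIP-seq libraries, which the lists alone do not show, was not tested either, and the lost and kept calls cannot be told apart from one.

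Smc3 was the assay that differed most between conditions at the lost sites. In WT liver 1547 of 2446 lost sites, or 63.2% (61.3 to 65.2), overlapped an Smc3 peak, compared with 83.6% (82.3 to 84.8) of kept sites. In the Setd8-LKO list only 97 lost sites, or 3.97% (3.23 to 4.82), did so, compared with 64.7% (63.1 to 66.3) of kept sites. The difference between lost and kept sites in the Setd8-LKO list was -60.8 percentage points (-62.5 to -58.9). With equal numbers of CTCF peaks in both lists these shares were 7.43 and 76.2%, with Smc3 within 500 bp they were 6.30 and 66.5%, and under the rule of 50% overlap they were 36.2 and 45.4%, a difference of -9.23 points (-11.9 to -6.55). Smc3 was in the WT list alone at 1456 lost sites, in both lists at 91, in the Setd8-LKO list alone at 6 and in neither at 893. Of the lost sites with Smc3 in WT, 5.88% (4.76 to 7.17) had it in Setd8-LKO, compared with 69.2% (67.5 to 70.9) of kept sites. Absence of Smc3 from the Setd8-LKO list was not confined to lost CTCF sites. It held for 7495 of the 13044 peaks of the whole WT Smc3 list that had a GC value.

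The lost sites that had Smc3 in both lists started from a higher level. Their median Smc3 enrichment was 19.2 in WT and 12.3 in Setd8-LKO, whereas the lost sites with Smc3 in the WT list alone had a WT median of 14.1. The 3 with the highest CTCF enrichment were the site near Ccn2, with Smc3 enrichments of 27.2 in WT and 14.3 in Setd8-LKO, the site in Iffo2, and chr7:143706740-143707006 in an intron of Osbpl5, with 22.8 and 9.50. All 3 were lower in the Setd8-LKO list, although the list as a whole had a higher median enrichment, 29.5 against 13.0. The strongest lost sites with Smc3 in WT alone were those near Slc46a1 and Gtf3c5 and in Opalin, with WT Smc3 enrichments of 15.2, 21 and 15.7. The 3 strongest without Smc3 in either list were in an exon of Clec9a, in an intron of Gm13274 and at the start of Tcaf2, and the first of them had no motif match.

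Among sites that carried Smc3 in WT, the share that also carried it in Setd8-LKO was higher at kept sites in each higher GC class from 45% upward and was low at lost sites in every class. Under 45% GC it was 57.1% (8 of 14) at kept and 3.77% (4 of 106) at lost sites. At kept sites it was 37.9% at 45 to 50% GC, 39.4% (226 of 574) at 50 to 55% GC, 58.2% (576 of 990) at 55 to 60% GC and 100% (626 of 626) at 65% GC or more. At lost sites it was 6.11% (35 of 573), 6.13% (46 of 750) and 5.17% (6 of 116) in the classes from 45 to 60% GC. Of all WT Smc3 peaks, at CTCF sites or not, 91.4, 84.8 and 57.2% were absent from the Setd8-LKO list in these 3 classes. Much of the absence of Smc3 at lost sites under 55% GC was thus shared by WT Smc3 peaks of like GC content.

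Smc3 summits lay on both sides of the motif, with a slight skew that was alike at lost and kept sites. With the motif read in the direction of its consensus, the WT Smc3 summit lay past the motif centre at 611 of 1053 lost sites, or 58.0% (55 to 61), and at 56.8% (54.6 to 59.0) of kept sites. The median offset was 8 bp at lost sites (quartiles -15 and 26) and 6 bp at kept sites (quartiles -13 and 25).

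H3K27ac was rare in both conditions at sites lost without any overlap. It overlapped 45 of 2446 lost sites in WT, or 1.84% (1.34 to 2.45), and 46 in Setd8-LKO, or 1.88% (1.38 to 2.5). At kept sites the shares were 32.4% (30.8 to 34.0) and 34.7% (33.1 to 36.3). Within 500 bp the WT shares were 4.62% of lost and 38.2% of kept sites. Under the rule of 50% overlap the order turned, with 23.1% of lost and 12.6% of kept sites in WT and 24.9 and 13.0% in Setd8-LKO. Of the 1458 sites that this rule added, 58.7% had H3K27ac in WT. Acetylation was shared by the lists less often at lost sites, since 28 of the 45 WT sites, or 62.2% (46.5 to 76.2), were acetylated in Setd8-LKO, against 97.1% (95.9 to 98.0) of kept sites. Their enrichment was also lower, with a WT median of 10.4 against 35.9 at kept sites. Over the 28 lost sites with H3K27ac in both lists the median enrichment was 11 in WT and 10.4 in Setd8-LKO. The 3 of them with the strongest CTCF were at a start of Cideb, a lipid droplet protein, in an intron of Crcp and at a start of Itih1, which encodes a plasma protease inhibitor chain made by the liver. Their H3K27ac enrichments were 6.79, 9 and 8.5 in WT and 10.2, 10.7 and 13.9 in Setd8-LKO, so these 3 examples do not stand for the 28 sites.

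Most lost sites were outside the accessible regions called by ATAC-seq. In WT 338 lost sites, or 13.8% (12.5 to 15.2), overlapped an ATAC region, and in Setd8-LKO 258 did, or 10.5% (9.36 to 11.8). The kept sites had shares of 37.1% (35.5 to 38.8) and 28.4% (26.8 to 29.9). Where a lost site was accessible in WT, it was accessible in Setd8-LKO in 216 of 338 cases, or 63.9% (58.5 to 69.0), compared with 71.3% (68.8 to 73.8) of kept sites. The median ATAC enrichment at accessible lost sites was 7.74 in WT and 7.67 in Setd8-LKO, near the medians of the whole lists, 7.53 and 7.23. Accessible lost sites are exemplified by chr2:39373148-39373402, 146817 bp from the nearest coding start, where ATAC enrichment was 11.9 in WT and 10.4 in Setd8-LKO and where Smc3 enrichment was 16.8 in WT with no Smc3 peak in Setd8-LKO.

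**Figure D3:**
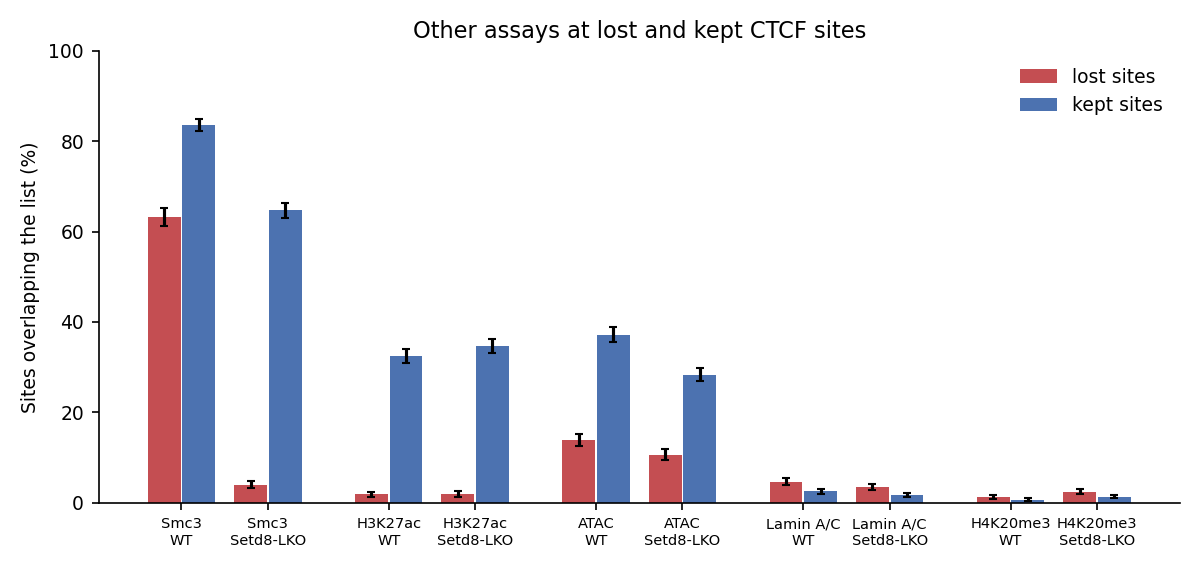
Share of lost (red) and kept (blue) WT CTCF sites that overlap a region of each assay in the WT and in the Setd8-LKO list, in percent, with 95% Clopper-Pearson intervals that cover counting error only. Smc3 falls from 63.2 to 3.97% at lost sites, and H3K27ac stays below 2% there in both lists.

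Lamin A/C and H4K20me3 islands, with median lengths of 120000 to 460000 bp, held few CTCF sites of either kind although they were extensive. Lamin A/C islands covered 849780000 bp in WT and 757560000 bp in Setd8-LKO. H4K20me3 islands covered 716620000 and 631900000 bp. Lamin A/C islands covered 114 lost sites in WT, or 4.66% (3.86 to 5.57), and 84 in Setd8-LKO, or 3.43% (2.75 to 4.23), with 76 in both. At kept sites the shares were 2.54% (2.03 to 3.12) and 1.74% (1.33 to 2.24). The median island score at lost sites was 748 in WT and 399 in Setd8-LKO, and at kept sites it was 706 and 450. Over the whole lists it was 357 and 226, but there each island counts once, whereas at sites an island counts once per site. H4K20me3 islands covered 29 lost sites in WT, or 1.19% (0.795 to 1.70), and 60 in Setd8-LKO, or 2.45% (1.88 to 3.15), with 24 in both. At kept sites these were 0.649% (0.407 to 0.980) and 1.30% (0.944 to 1.74). Among the 76 lost sites inside Lamin A/C islands of both lists, 24 had Smc3 in WT, or 31.6%, none had H3K27ac in WT and 11 lay in H4K20me3 islands, against 64.9, 1.94 and 0.775% of the 2324 lost sites outside Lamin A/C in both. The 3 with the highest CTCF enrichment were the start of Tcaf2 and 2 intergenic peaks, chr4:111687646-111687955 and chr10:56339176-56339408, whose nearest coding genes are Spata6 and Gja1. None of the 3 had an Smc3 peak in either list, although the motif of the site near Spata6 scored 23.0, where the highest score among lost sites was 23.5.
Site near Spata6, chr4:111687815-111687858, plus strand: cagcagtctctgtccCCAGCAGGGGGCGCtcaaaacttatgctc

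Because GC content moved with the loss, lost and kept sites were compared again within GC classes and then only with sites of the same GC content, comparisons added after seeing the data. Among sites of 50 to 55% GC, with 1075 lost and 723 kept, Smc3 was in the WT list at 69.8 and 79.4%, a difference of -9.62 points (-13.6 to -5.53). In the Setd8-LKO list Smc3 was found at 4.47% of lost and 34.4% of kept sites, a difference of -30.0 points (-33.7 to -26.3), and at 45 to 50% GC the difference was -27.2 points. H3K27ac in WT was found at 1.77 and 8.85%, a difference of -7.08 points (-9.46 to -4.98) where that over all sites was -30.6. ATAC in WT was found at 16.5 and 24.3%, a difference of -7.88 points (-11.8 to -4.09) where that over all sites was -23.3. For Lamin A/C in WT the difference was 0.44 points (-1.24 to 1.97), for H4K20me3 in Setd8-LKO it was 0.62 points (-0.667 to 1.77), and for the motif it was -2.5 points (-6.84 to 1.91), so no difference was detectable for these 3 at this number of sites. The class did not match the sites fully, since the median GC content within it was 52.2% at lost and 53.2% at kept sites and the share lost fell from 74.9% at 50 to 52% GC to 32% at 54 to 56% GC.

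In the closer comparison each lost site was set against kept sites with the same number of G and C within 100 bp of the summit, which could be done for 2411 lost and 2223 kept sites (Mantel-Haenszel difference, lost minus kept). For Smc3 the difference was -9.62 points (-12.8 to -6.41) in WT and -32.4 points (-35.1 to -29.6) in Setd8-LKO, where those without this matching were -20.4 and -60.8. For H3K27ac it was -8.53 points (-10.2 to -6.82) in WT and -9.27 points (-11 to -7.53) in Setd8-LKO, and for ATAC it was -8.76 points (-11.8 to -5.73) and -7.70 points (-10.4 to -4.96). These 6 differences were thus smaller at the same GC content, and none of their intervals reached 0. The intervals count each site as independent and hold no spread between livers, so they do not show whether other livers would differ likewise. The Lamin A/C and H4K20me3 differences were no longer detectable, at 0.21 points (-1.11 to 1.53) and -0.29 points (-1.45 to 0.87) for Lamin A/C in WT and Setd8-LKO and at 0.31 points (-0.263 to 0.879) and 0.62 points (-0.307 to 1.55) for H4K20me3. The motif difference was -2.85 points (-6.34 to 0.65).

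**Figure D4:**
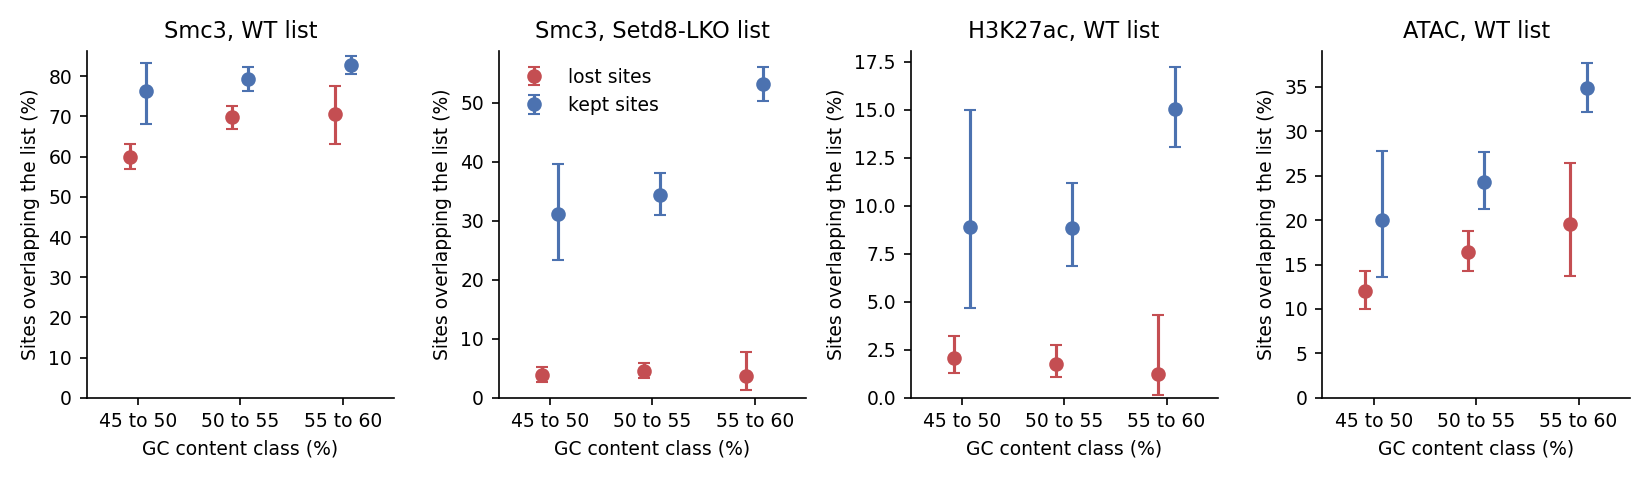
Share of lost (red) and kept (blue) WT CTCF sites that overlap Smc3 in the WT list, Smc3 in the Setd8-LKO list, H3K27ac in the WT list and ATAC in the WT list, within 3 classes of GC content (x axis), in which lost and kept sites are not fully matched for GC content, in percent (y axis) with 95% Clopper-Pearson intervals. Lost sites lie below kept sites in every panel and class, and for Smc3 in the Setd8-LKO list they stay between 3.66 and 4.47%.

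Lost sites lay away from promoters. A transcript start was within 1000 bp of 270 lost sites, or 11% (9.82 to 12.3), and of 42.6% (41.0 to 44.3) of kept sites. Of the remaining lost sites, 125 had their summit in an exon, 980 in an intron and 1071 between genes. Read the other way, 15.7% of promoter sites were lost, compared with 55.7% of intronic and 53.2% of intergenic sites. At 50 to 55% GC the promoter sites were lost at 40.1% (34.3 to 46.0) and the others at 63.5% (61.0 to 65.9), and at 55 to 60% GC at 7.63% (5.13 to 10.8) and 13.7% (11.6 to 16). The median distance to the nearest coding transcript start was 11374 bp at lost and 3277 bp at kept sites. Summits in sequence that the genome release masks as repeats were found at 11.5% (10.3 to 12.9) of lost and 3.48% (2.89 to 4.15) of kept sites. Repeat summits were lost at 76.1% (67 to 83.8) and other summits at 58.7% (56.3 to 61.1) at 50 to 55% GC, and at 91.8% (86.1 to 95.7) and 87.0% (84.7 to 89.1) at 45 to 50% GC. The order was not the same in every class, since under 45% GC they were lost at 92.5 and 93.1% and at 55 to 60% GC at 6% (1.25 to 16.5, 3 of 50) and 12.3% (10.6 to 14.2). At the same GC content lost sites exceeded kept sites by 1.86 points (0.177 to 3.54) in the share of repeat summits. For the share at promoters the difference at the same GC content was -12.4 points (-15.4 to -9.54). The summit of the strongest lost site, near Slc46a1, is masked as a repeat.

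The same comparison was made among sites away from promoters and without H3K27ac in either list, 2138 lost and 1711 kept. Smc3 was in the WT list at 62.0% of these lost sites (59.9 to 64.1) and 82.0% of the kept ones (80.1 to 83.8), and in the Setd8-LKO list at 3.27% (2.56 to 4.12) and 43.4% (41.1 to 45.8). ATAC in WT was found at 12.5 and 23.1%. The motif was found at 66.7% of lost and 71.9% of kept sites here, a difference of -5.25 points (-8.15 to -2.32). The median GC content was 50.2% at lost and 56.2% at kept sites, so this choice of sites did not match them for GC content.

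Taking both lists of each assay together, the most common state of a lost site was Smc3 with none of the other 4 assays, at 1180 of 2446 sites, or 48.2%. No region of any of the 5 assays overlapped 697 lost sites, or 28.5%. Smc3 with ATAC was found at 259, or 10.6%, ATAC alone at 76 and Lamin A/C alone at 67. All other combinations had 30 sites or fewer.

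Among the 10 lost sites with the highest CTCF enrichment, those not yet described also had Smc3 in the WT list alone. They were in introns of Epb41l4b and Zbtb8os, with CTCF enrichments of 23.8 and 23.5 and Smc3 enrichments of 14.6 and 31, and between genes at chr13:59840568-59841147 and chr1:153386776-153387055, with 23.2 and 22.8 for CTCF and 19.6 and 24.3 for Smc3. Both intergenic sites lacked a motif match. The site in Epb41l4b differed from the rest of the 10 in having H3K27ac in the Setd8-LKO list, with an enrichment of 5.38, together with an ATAC region in that list alone.

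Loss was spread over the autosomes, from 37.4% of the 508 sites on chromosome 11 to 48.3% of the 209 sites on chromosome 14, with overlapping intervals at these extremes (33.2 to 41.8 and 41.4 to 55.3). Along the chromosomes a site that followed a lost site was lost in 45.4% (43.4 to 47.4) of cases and a site that followed a kept site in 39.5% (37.9 to 41.2). Among gene clusters searched within 10 kb by the start of the gene symbol, 8 of 11 WT sites at genes beginning with Krt, mostly keratins and keratin-associated proteins, were lost, and so were 9 of 17 at olfactory receptors (Olfr). Of 7 sites at symbols beginning with Cyp2, the 1 lost was at Cyp26b1, a retinoic acid hydroxylase. None of the 4 sites at Hoxa and Hoxb genes was lost, while the only site at Hoxd genes was. Among imprinted genes 1 of 3 sites was lost, at Grb10. These clusters hold too few sites for a comparison.

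RNA was measured in 5 untreated WT and 4 Setd8-LKO livers after TCPOBOP, with 5 WT livers after TCPOBOP in a separate table. The deposited table for Setd8-LKO lists only 3900 genes that the authors had selected as changed, with 5734065 to 12780869 listed raw counts per library, so a count of changed genes says nothing about whether loss of CTCF and RNA go together. Kmt5a, the targeted gene, had 613, 567, 761, 563 and 715 normalised counts in WT and 1341, 1465, 1338 and 1313 in Setd8-LKO by label, and it rose by 1.08 on the log2 scale (SE 0.14, edgeR adjusted p = 0.000151). These counts cover the whole gene and not the floxed part alone, so they do not check the deletion. The log2 change of Kmt5a also rests on the authors' scaling. Size factors that DESeq2 computed from the listed genes moved the median log2 change of all listed genes from 1.16 to 0.30. The change of Kmt5a under those size factors is not given here.

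Of 289 genes with a lost CTCF site at a transcript start, 39 were in the table, or 13.5%, against 14.3% of the 1658 genes with a kept site there. The table lists 21.1% of the genes the authors tested, but these shares have other denominators, since the genes at CTCF sites were counted from the annotation whether tested or not and only 173 of the 289 and 1339 of the 1658 are protein-coding. Of these, 37 passed the filter on low counts, and 19 rose and 16 fell (edgeR quasi-likelihood test, Benjamini-Hochberg adjusted p under 0.05 and a log2 change of at least 1). Over all 3726 listed genes tested, 55.2% rose and 37.5% fell. Scaling by size factors that DESeq2 computed from the listed genes gave 7 that rose and 16 that fell among 36 tested, beside 23.4% that rose and 41.5% that fell of all 3608 listed genes tested in this way, and they moved the median log2 change of all listed genes from 1.16 to 0.30. The 35 called genes all had WT and Setd8-LKO values that did not overlap, as did 93.2% of all 3455 called genes of the table. RNA came from whole liver tissue, so fewer hepatocytes and less RNA per hepatocyte cannot be told apart.

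The 5 largest rises were at Sapcd2, Adcy10, Mcm5, Thbs1 and Adgrg1. Sapcd2, a regulator of spindle orientation, had 3, 3, 0, 0 and 2 normalised counts in WT and 38, 41, 45 and 36 in Setd8-LKO. All 4 Setd8-LKO libraries lay above all 5 WT libraries, as the choice of the named genes required. The fitted log2 change of Sapcd2 was 4.60 (SE 0.51, edgeR adjusted p = 5.5e-05). Its lost site, chr2:25376723-25376960, had a WT CTCF enrichment of 11.8. Adcy10, the soluble adenylyl cyclase, had 1, 0, 3, 3 and 7 in WT and 53, 41, 23 and 33 in Setd8-LKO, and 12 to 25 in WT livers after TCPOBOP, whose table was normalised separately. The TCPOBOP-treated WT livers were thus also above the untreated ones. Mcm5, a subunit of the replicative helicase, had 37, 53, 87, 39 and 63 in WT, 366, 554, 251 and 415 in Setd8-LKO and 132 to 322 in WT after TCPOBOP, and its log2 change between untreated WT and Setd8-LKO was 2.82 (SE 0.31, edgeR adjusted p = 5.1e-05). Thbs1, a matricellular glycoprotein, had a mean of 21 ± 9.97 (SD, n = 5) in WT and 141 ± 65.9 (SD, n = 4) in Setd8-LKO. Adgrg1, an adhesion receptor, had 79.0 ± 15.5 (SD, n = 5) and 510 ± 106 (SD, n = 4).

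The 5 largest falls were at Lamb3, Gnat1, Slco2b1, Csad and Prodh2. Slco2b1, an organic anion transporter, had 2825, 2980, 3330, 3210 and 3345 normalised counts in WT and 732, 607, 766 and 608 in Setd8-LKO, and it fell by 2.21 on the log2 scale (SE 0.15, edgeR adjusted p = 3.1e-06). Its lost site was chr7:99710564-99710827, with a WT CTCF enrichment of 12.0. Prodh2, a mitochondrial dehydrogenase of hydroxyproline breakdown, had 4146 ± 588 (SD, n = 5) in WT and 1037 ± 276 (SD, n = 4) in Setd8-LKO. Csad, the decarboxylase of taurine synthesis, had 7251 ± 2756 (SD, n = 5) and 1633 ± 589 (SD, n = 4), the widest relative spread in WT among these 5. Lamb3, a laminin chain, had 7808 ± 1731 (SD, n = 5) and 1398 ± 383 (SD, n = 4), and fell by 2.48 on the log2 scale (SE 0.25, edgeR adjusted p = 2.9e-05). Gnat1, the alpha subunit of rod transducin, had 857 ± 276 (SD, n = 5) and 172 ± 63.0 (SD, n = 4) and also carried a kept CTCF site at a transcript start. Libraries came from 2 runs, and each of the 10 genes moved in the same direction within both of them, for example from 3295 to 608 mean counts of Slco2b1 in run A and from 2902 to 702 in run B, with 1 Setd8-LKO library in run A.

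**Figure D5:**
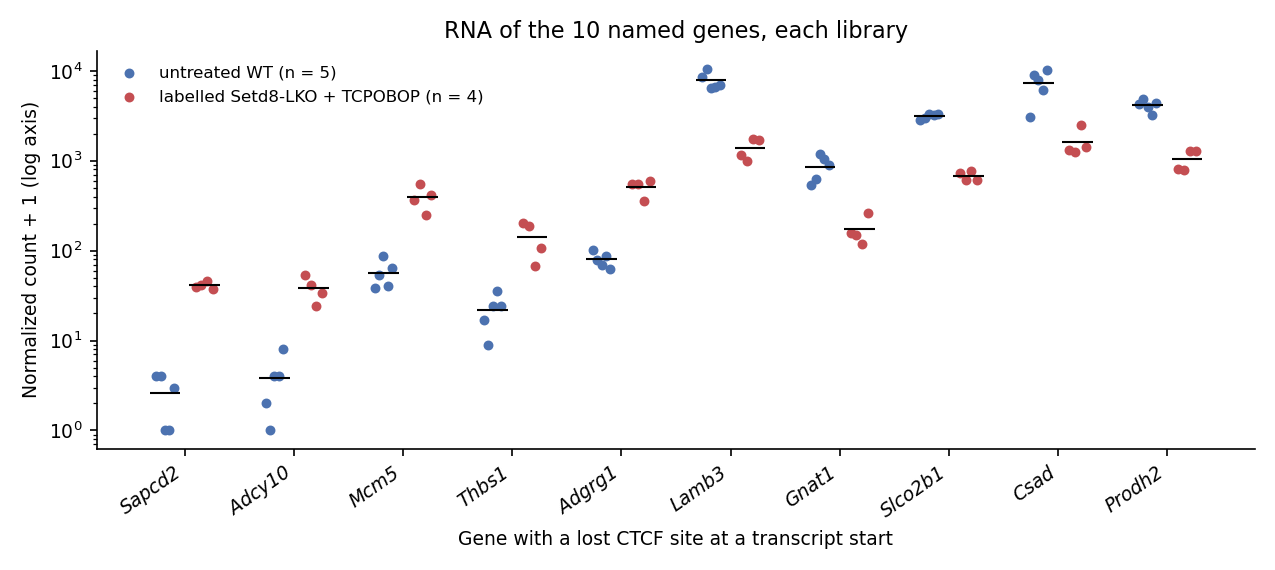
Normalised counts plus 1 (log axis) of the 10 named genes with a lost CTCF site at a transcript start, in each of the 5 untreated WT (blue) and 4 Setd8-LKO (red) libraries, with the group mean as a line. By the rule that chose them, the 5 genes on the left are higher and the 5 on the right lower in every Setd8-LKO library than in every WT library.

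Of 25 genes of the CTCF and cohesin machinery, 5 were in the table, or 20%, near the 21.1% that the table holds of all genes the authors tested. Of these 5, 4 rose and 1 fell. Of all 3726 listed genes tested, 55.2% rose and 37.5% fell, or 23.4 and 41.5% of 3608 with the DESeq2 size factors. So few genes allow no comparison with these shares. Of the 3 H4K20 methyltransferases fixed in the same list, Kmt5a alone was in the table. Ctcf and Smc3 themselves were not among the listed genes. Esco2, which acetylates Smc3 during replication, had 14, 11, 28, 22 and 33 normalised counts in WT and 278, 356, 281 and 221 in Setd8-LKO. All Setd8-LKO libraries were above all WT libraries, and its log2 change was 3.71 (SE 0.31, edgeR adjusted p = 1.1e-05). Cdca5 (sororin, which keeps cohesin on sister chromatids), Sgo1 (which protects centromeric cohesin) and Espl1 (separase, which cleaves cohesin) rose by 3.8, 4.04 and 3.82 on the same scale, and Kmt5a rose as given above. In WT, Cdca5 had only 1 to 9 and Sgo1 only 1 to 8 normalised counts, so the size of their changes rests on low counts. Pttg1 (securin, the inhibitor of separase) fell by 1.14 (SE 0.20, edgeR adjusted p = 0.0015).

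Cell type markers moved in the same libraries. Their counts stand beside a table that lists 21.1% of the genes tested by the authors, of which 55.2% rose and 37.5% fell, or 23.4 and 41.5% with the DESeq2 size factors. Of 10 hepatocyte markers 6 were listed and 5 of them fell, and their summed normalised counts were 1091981 to 1813730 in WT and 436987 to 635776 in Setd8-LKO, with Alb the most abundant. All 5 cholangiocyte markers were listed and 4 rose, with sums of 422 to 686 in WT and 1617 to 7426 in Setd8-LKO, most abundant Spp1. Of 7 stellate cell markers 3 were listed and all rose, with sums of 554 to 1359 and 2107 to 6735, most abundant Col3a1. Of 7 macrophage markers only Marco was listed, which rose from 73 to 272 in WT to 304 to 489. In WT livers after TCPOBOP, whose table was normalised separately, Marco had 210 to 576. Among the markers of other leukocytes, S100a8 and S100a9 were listed and did not pass the test, and none of 5 endothelial markers was listed. H3K27ac stood within 1000 bp of a start of 10 of the 10 hepatocyte markers in WT and 9 in Setd8-LKO, of 2 and 3 of the 5 cholangiocyte markers, of 2 stellate and 2 endothelial markers in both lists and of no macrophage or other leukocyte marker in either. The part that a change in cell types plays in the CTCF lists or the RNA of these genes was not tested.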

How the data were processed

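Per the labels and the study's methods, ChIP-seq, CUT&Tag and ATAC-seq reads were trimmed with Trimmomatic 0.39, aligned to mm10 with HISAT2 and, except for ATAC-seq, reduced in proportion to the sample with the fewest reads, and the authors called regions with MACS2 2.2.7.1 (CTCF, Smc3, H3K27ac, ATAC) or SICER2 (Lamin A/C, H4K20me3), 1 list per condition. The deposited lists give fold enrichment over local background (a ratio), −log10 p and, for SICER2, an island score. For RNA the authors deposited raw counts, their normalised counts rounded to whole numbers (treated as a score) and p-values, of which the ratio of adjusted to raw values was used only to find that 18512 genes had been tested. Columns of the authors' fold changes were not used, nor were 114 other columns of per-sample values.

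Here, regions were compared by overlap of at least 1 bp, with annotation from GENCODE M21 and sequence from GRCm38.p6 (Python 3.11.15, pysam 0.24.0, scipy 1.17.1). Windows reached 100 bp to each side of the summit. Lost and kept sites of the same GC content were compared by a Mantel-Haenszel difference, chosen after seeing the data. The motif matrix was learned on kept sites of one set of chromosomes and scored on the other. Raw counts were tested with edgeR 4.0.16 (quasi-likelihood, low counts removed by filterByExpr at 10), scaled by factors taken from the authors' normalised values and with an assumed 40000000 reads per library, adjusted over 18512 genes. DESeq2 1.42.0 was an alternative. On simulated data the RNA test on 3733 genes found 198 of 200 changed genes. The study's methods call the replicates biological, the labels do not tie libraries to animals, and p-values measure the spread between these libraries. The members, lists and tests were chosen with earlier results of these data known. Sites named are the strongest of each class stated, and genes named are the 5 largest rises and falls among called genes without overlap between groups. Strand-specific counting is not given in the sources used here. A lost site and a marker gene that met these rules are not reported here.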

Additional observations from a re-analysis of the deposited data

Results flagged for a closer look

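In 4 of 32 groups of libraries checked, 1 library stood far from the rest of its group (Dixon's criterion, which chance meets in about 1 of 20 groups). Csad had 2510 normalised counts in Setd8-LKO replicate 3, against 1261 to 1434 in the other Setd8-LKO libraries, and still lay below every WT library. Sgo1 had 8 in WT replicate 3, against 1 to 3 in the others, and 39 in Setd8-LKO replicate 4, against 64 to 66. Pttg1 had 423 in WT replicate 2, against 331 to 346. Each of these genes kept the direction reported above in all libraries.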

How the results depend on the processing

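The number of lost sites was 2384 without sites that had a Setd8-LKO peak within 500 bp, 2356 among peaks with a −log10 p of at least 20 and 3134 with the Setd8-LKO list reduced to its 5838 strongest peaks. It was 3904 when 50% of both peaks had to overlap. That rule also gave 71.2 and 36.2% of lost sites with Smc3 in the WT and Setd8-LKO list, 23.1 and 24.9% with H3K27ac, 25.5 and 18.9% with ATAC, and 3.84 and 2.64% with Lamin A/C, against 82.8 and 45.4, 12.6 and 13.0, 31.1 and 25, and 2.59 and 2.07% of kept sites. The H3K27ac differences between lost and kept sites were thus reversed, at 10.5 points in WT and 11.9 points in Setd8-LKO. The difference for Lamin A/C in Setd8-LKO was 0.57 points under that rule and the one for H4K20me3 in WT was 0.38 points under that rule, 0.46 points with a −log10 p of at least 20 and 0.39 points with equal numbers of CTCF peaks, with intervals that reached 0. With equal numbers of CTCF peaks Smc3 was at 66.8 and 7.43% and ATAC at 15.5 and 12.1%. With the other assay within 500 bp, Smc3 in Setd8-LKO was at 6.30%, H3K27ac at 4.62 and 4.78%, and ATAC at 15.5 and 12.1%. With a −log10 p of at least 20, ATAC was at 10.7 and 8.49%. Among sites of 50 to 55% GC, chosen after seeing the data, Smc3 in WT was at 69.8%, ATAC at 16.5 and 12.9%, Lamin A/C at 3.07 and 2.42% and H4K20me3 in Setd8-LKO at 1.86%. Compared only with sites of the same GC content, also chosen after seeing the data, the differences for Lamin A/C were 0.21 points in WT and -0.29 points in Setd8-LKO (2.12 and 1.69 without matching), and those for H4K20me3 were 0.31 and 0.62 points (0.54 and 1.16 without matching), with intervals that reached 0. The motif was at 16.4% at the 0.1% score (kept sites 24.1%) and at 70.9% within 50 bp of the summit (kept sites 69.1%), with a matrix learned from kept sites only. The cause of these shifts was not tested. The number of called genes with a lost site at a transcript start was 35, and it was 23 with DESeq2 size factors, 154 with starts within 5000 bp, 36 by the DESeq2 Wald test and 34 to 36 with 1 library left out. With the replicate number as a block it was 33. Same-numbered WT and Setd8-LKO libraries had correlations of deviations of -0.14 to 0.07, so the numbers did not pair the libraries. The 10 named genes stayed called in the same direction under all 140 alternatives run for them. They had been chosen as the largest changes among called genes without overlap, so this outcome was close to fixed by the choice. The lists hold no depth, so a lost site is one below the peak caller's threshold and not one shown to be without CTCF.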
